A study of Mus musculus with 24 samples.

Results

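The heat shock and J-domain chaperones are the protein-coding genes whose names begin with Hsp90, with Hspa, Hspb, Hspd, Hspe or Hsph and a number, or with Dnaja, Dnajb or Dnajc and a number. Of the 54532 genes in the expression table, 72 met this rule, and no measured value was used to choose them. They were followed in brain RNA of 24 male wild-type C57Bl6 mice aged 8 to 12 weeks, in 4 groups of 6. Mice were infused for 2 weeks with saline vehicle or with angiotensin II, a peptide hormone that raises blood pressure, at 0.7 mg/kg/day. Each also received a tail vein injection, of human amnion epithelial cells from term placentae or of saline. The groups are called vehicle, angiotensin II, vehicle + amnion epithelial cells and angiotensin II + amnion epithelial cells. Each library came from a whole brain hemisphere, so fewer cells of a type and less RNA per cell cannot be told apart. The study asked whether the cells limit the tissue damage and cognitive decline of angiotensin II hypertension, and the comparisons here ask whether chaperone transcripts moved with either treatment.

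Chaperones bind unfolded or partly folded proteins and keep them from aggregating. HSP70 proteins do this in cycles of ATP binding and hydrolysis, J-domain proteins (the DNAJ families) deliver substrates to HSP70 and stimulate its ATPase, and HSP110 proteins exchange its nucleotide. HSP90 acts later on signalling proteins such as kinases and hormone receptors, small heat shock proteins hold unfolded proteins without ATP, and the Hspd1-Hspe1 chaperonin folds proteins inside mitochondria. Stress in the cytosol induces part of the set through heat shock factor 1, and stress in the endoplasmic reticulum (ER) induces another part through the unfolded protein response.

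Libraries held 16536449 to 25308700 reads, as recovered from the expression values, and 6 of them stood apart. Their total FPKM (fragments counted on a gene, divided by its length and by the size of the library) was 338334 to 348597, against 277116 to 298301 in the other 18, and mitochondrial transcripts took 6.17 to 6.85% of their reads against 4.79 to 5.75%. The 6 were angiotensin II + amnion epithelial cells replicates 5 and 6, vehicle + amnion epithelial cells replicate 6, angiotensin II replicate 5 and vehicle replicates 5 and 6, so every group held at least 1. In addition, angiotensin II replicate 4 had a summed FPKM of 1573 for 5 pituitary hormone genes, against at most 27.3 in every other library. Brain markers were as labelled in all libraries, with summed FPKM of 668 to 774 for 5 neuronal, 153 to 190 for 5 astrocyte and 919 to 1432 for 5 oligodendrocyte genes. No marker of 10 cell type lists passed adjustment between treatment groups (limma).

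Chaperone transcripts were abundant and unevenly shared among the members. Hsp90ab1, the constitutive cytosolic HSP90, was the highest at 560.8 FPKM averaged over 24 mice, followed by Hspa8, the constitutive HSP70, at 428.9, and Hsp90aa1, the inducible cytosolic HSP90, at 187.6. These 3 genes held 50.7% of the summed mean FPKM of all members. Next came Hspa5, the ER HSP70 also known as BiP, at 79.2 FPKM, and Hspd1, the mitochondrial HSP60, at 62.7 FPKM. Hsp90ab1 was above Hspa8, and Hspa8 above Hsp90aa1, in each of the 24 mice. Of the 72 members, 62 had a mean of at least 1 FPKM and 38 of at least 10, and the other 10 were below 1.

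Levels differed by family, on the same length-scaled unit. All 3 HSP90 and all 3 HSP110 genes were above 10 FPKM, with family medians of 187.6 and 35.9. The 11 HSP70 genes ran from 0.881 (Hspa1l) to 428.9 (Hspa8) with a median of 7.17, and the stress-inducible Hspa1a and Hspa1b were low at 3.14 and 4.37. Among J-domain genes the highest were Dnajc5, the cysteine string protein of synaptic vesicles, at 60.4 FPKM, Dnaja2 at 59.9 and Dnajb2 at 38.8, and Dnajc6, the auxilin that uncoats clathrin vesicles with Hspa8, reached 26.0. The small heat shock proteins, here the genes named Hspb, were the lowest family, with a median of 2.13 FPKM and a highest member, Hspb1, at 17.1. The crystallin small heat shock proteins fall outside the name rule, and 1 of them, Cryab, had a mean of 90.7 FPKM. Under 0.1 FPKM were Hspb7 (0.097), Dnajc5b (0.047), Dnajb7 (0.035) and Dnajc5g (0.0040), the last with 3 reads in 1 mouse and none in the other 23.

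**Figure D1:**
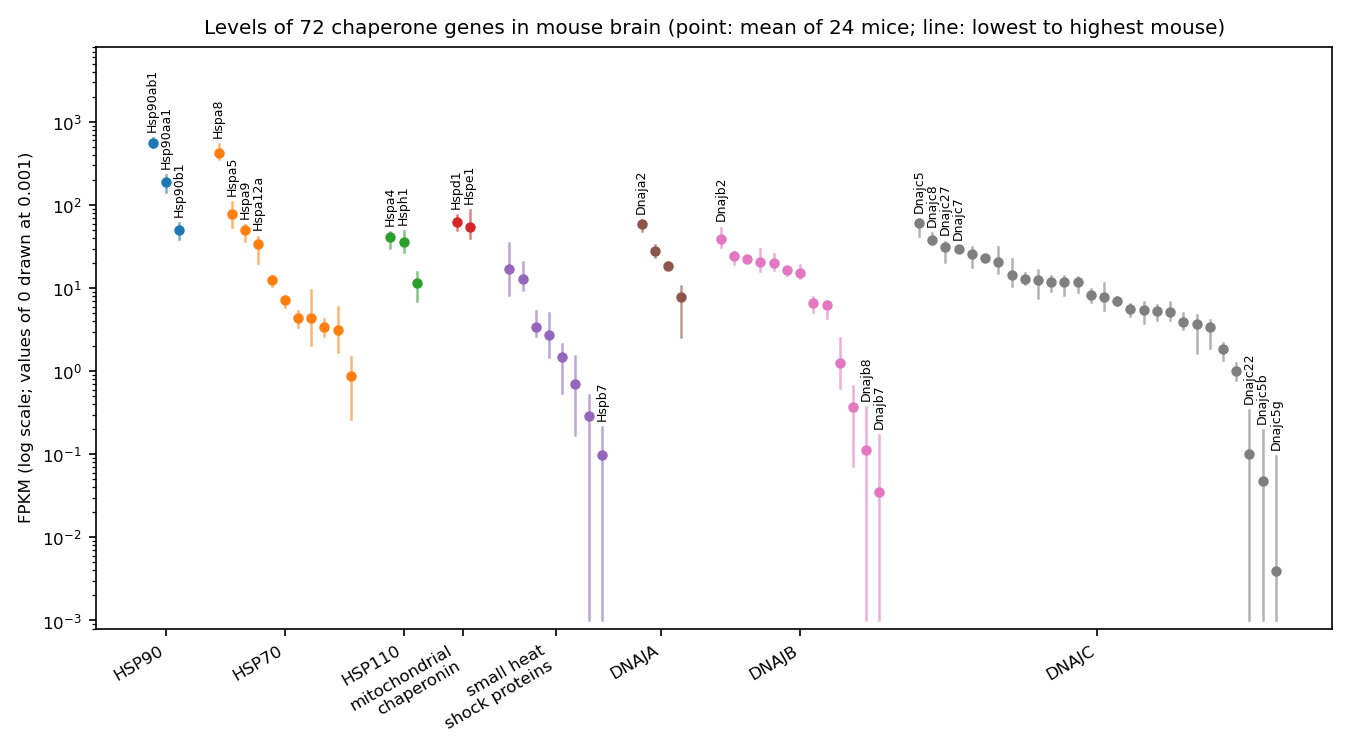
Mean FPKM of each of the 72 members (point, mean of 24 mice) with the lowest and highest mouse (line), by family, on a log axis. Hsp90ab1, Hspa8 and Hsp90aa1 sit above all others, and 4 genes lie below 0.1.

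The members that varied most among mice were not the abundant ones. On the log2(FPKM + 0.1) scale, and among members with a mean of at least 1 FPKM, the SD over 24 mice was highest for Hspa1b (0.60), then Dnaja4 (0.57), Hspb1 (0.53), Dnajc13 (0.52) and Dnajb3 (0.50). Hsp90ab1 had an SD of 0.096, and Dnajc7, a co-chaperone that binds both HSP70 and HSP90, of 0.044. Dnaja4, Dnajc13 and Dnajb3 took their extreme values in the 6 libraries that stood apart, while Hspa1a and Hspa1b varied among mice within both sets.

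Hspa1a (chr17:34969190-34972156, minus strand, GRCm38) and Hspa1b (chr17:34956436-34959238, minus strand) encode nearly identical proteins, so the split of reads between them is uncertain and their sum was used where possible. Their promoters are nearly identical as well, and are shown because both genes varied together. In the RefSeq windows (GRCm38.p6) of 250 bases before each start, at chr17:34972157-34972406 and chr17:34959239-34959488 on the minus strand, 247 of 250 bases were the same. Capitals mark the match to a pair of facing heat shock factor units, spelled GAANNTTC or TTCNNGAA and searched on both strands, 104 to 97 bases before the start in each.
Hspa1a: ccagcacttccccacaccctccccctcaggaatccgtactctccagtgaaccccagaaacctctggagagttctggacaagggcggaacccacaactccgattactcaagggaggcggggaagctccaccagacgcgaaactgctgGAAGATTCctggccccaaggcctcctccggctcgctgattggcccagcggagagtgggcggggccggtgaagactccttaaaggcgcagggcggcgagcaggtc
Hspa1b: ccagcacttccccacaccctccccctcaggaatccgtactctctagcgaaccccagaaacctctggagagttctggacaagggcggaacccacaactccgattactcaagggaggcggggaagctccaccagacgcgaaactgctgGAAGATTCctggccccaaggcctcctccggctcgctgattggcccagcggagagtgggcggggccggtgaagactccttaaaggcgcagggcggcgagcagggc
The longer heat shock element has 3 units in which GAA and TTC alternate with 2 free bases (NN) between them. No exact match to it was in these windows, and near matches with a changed base were not searched for. Short matches are common, since 14.5% of all 27025 genes with a window held the 2-unit match. Of the 72 members, 58 had a window. Without a window were Hsp90ab1, Hspa8, Hsp90aa1, Dnajc5, Hspa9, Dnajc18, Dnajc30, Dnajc11, Dnajc2, Hspa13, Dnajc12, Hspb2, Dnajc22 and Dnajc5b. Of the 58, 14 (24.1%) held the 2-unit match, among them Hsph1 and Dnaja1, for which 30 bases around the match are shown (chr5:149636351-149636380, minus strand, and chr4:40722333-40722362, plus strand), 33 to 26 and 124 to 117 bases before a RefSeq start.
Hsph1: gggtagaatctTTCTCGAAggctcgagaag
Dnaja1: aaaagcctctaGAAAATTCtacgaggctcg
These matches lie within the annotated Hsph1 and Dnaja1, and the windows of the other Dnaja1 starts held no match. An exact match to the 3-unit element stood in windows of 3 of 58 members (5.17%), against 0.514% of all genes with a window. These were Dnajb6, Hspd1 and Hspe1, the last 2 sharing 1 stretch. Hspd1 (chr1:55077835-55088243, minus strand) and Hspe1 (chr1:55088132-55091307, plus strand) lie head to head and overlap in the annotation. Between the Hspe1 start and 1 of the 2 RefSeq starts of Hspd1, 2 overlapping matches joined into a run of 18 bases (capitals), 89 to 72 bases before the Hspe1 start, shown with its flanks at chr1:55088053-55088082 on the plus strand. It lies within the annotated Hspd1, and the window of the other Hspd1 start held no match.
Hspd1-Hspe1: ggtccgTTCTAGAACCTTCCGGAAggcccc
A match is a description of letters and not evidence of binding.

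Angiotensin II alone left the chaperone genes close to their vehicle levels. None of the 71 members that passed the filter on low values reached an unadjusted p under 0.05 in angiotensin II against vehicle, where 2.21% of all 27286 genes tested did (limma on log2(FPKM + 0.1)), and none passed after Benjamini-Hochberg adjustment, as for all genes (0%). The median log2 difference of the members was 0.019 and that of all genes 0.021. By estimate 41 members were higher and 30 lower, with no family standing out. The HSP110 genes had a median of 0.089, the DNAJC genes of 0.040 and the small heat shock proteins of -0.077. The lowest p-values belonged to Dnajc14 (0.11, SE 0.074), Dnajc16 (0.12, SE 0.094) and Dnajc2 (0.11, SE 0.086), each with an adjusted p of 0.994 in limma.

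The values of the leading members overlapped between vehicle and angiotensin II. Hsp90ab1 was 564.4 ± 48.6 FPKM with vehicle and 554.9 ± 25.3 with angiotensin II (SD, n = 6 each), a log2 difference of -0.02 (95% interval -0.19 to 0.15). Hspa8 was 433.9 ± 60.7 and 417.9 ± 32.4 FPKM, a log2 difference of -0.05 (-0.27 to 0.18). Hspa5 was 85.3 ± 12.5 and 79.6 ± 9.81 FPKM (-0.42 to 0.24). For 57 of the 71 members, and 37 of the 38 with at least 10 FPKM, the interval lay within a 1.5-fold change either way. With the library set as a term in the fit, the median SE of the members fell from 0.126 to 0.0658, the interval was within 1.5-fold for 61 members and all 38 abundant ones, and no member reached an unadjusted p under 0.05 (3.46% of all genes).

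The heat-inducible genes did not separate the groups either. The sum of Hspa1a and Hspa1b was lowest, median and highest at 4.86, 6.67 and 12.95 FPKM with vehicle, 4.58, 6.30 and 13.4 with angiotensin II, 4.78, 6.65 and 15.4 with vehicle + amnion epithelial cells, and 4.83, 5.48 and 11.3 with angiotensin II + amnion epithelial cells. Every group held 1 or 2 mice above 11 FPKM and the rest lay at 9.1 or below. In two-sided exact permutation tests of the log2 sum, p was 0.652 for angiotensin II against vehicle, 0.745 for angiotensin II + amnion epithelial cells compared with angiotensin II and 0.892 for vehicle + amnion epithelial cells against vehicle, where 6 against 6 mice can give 0.0022 at the lowest. Dnajb1, the main inducible HSP40, was 19.3 ± 2.14, 19.6 ± 2.12, 20.6 ± 3.53 and 20.1 ± 2.54 FPKM in the 4 groups in the same order, and Hsph1, the inducible HSP110, was 34.6 ± 4.65, 36.0 ± 5.34, 37.996 ± 7.46 and 35.1 ± 4.43 FPKM.

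The other leading members were as close across the 4 groups, given in the same order. Hsp90b1 was 50.6 ± 3.60, 50.5 ± 4.85, 48.7 ± 8.03 and 48.5 ± 2.98 FPKM, and Hspd1 was 60.1 ± 5.12, 64.6 ± 6.90, 64.2 ± 8.11 and 61.8 ± 5.39 FPKM. Hspe1 was 55.9 ± 15.6, 52.9 ± 9.79, 52.5 ± 10.7 and 57.6 ± 16.5 FPKM, and Hspb1 was 19.1 ± 9.05, 16.1 ± 3.11, 15.1 ± 3.99 and 17.999 ± 9.55 FPKM, with the highest values of both genes in the set of 6 libraries. Hsp90aa1 was 183.9 ± 24.8, 188.5 ± 23.1, 192.4 ± 29.4 and 185.6 ± 26.3 FPKM, with its lowest values there.

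In exact permutation tests of single members, no member had groups that did not overlap in any of the 4 comparisons. Over all genes the groups did not overlap in 0.0623% for angiotensin II against vehicle, 0.0990% for the cells with angiotensin II, 0.0623% for the cells with vehicle and 0.0843% for angiotensin II with the cells. Of 288 exact tests of members, 1 had p under 0.05, where in the same order 2.11%, 2.13%, 2.02% and 2.06% of all genes did. It was that of Dnajc7 in angiotensin II against vehicle (30.6 ± 0.721 against 29.7 ± 0.271 FPKM, n = 6 each, exact p = 0.0216, unadjusted), a log2 difference of 0.04.

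**Figure D2:**
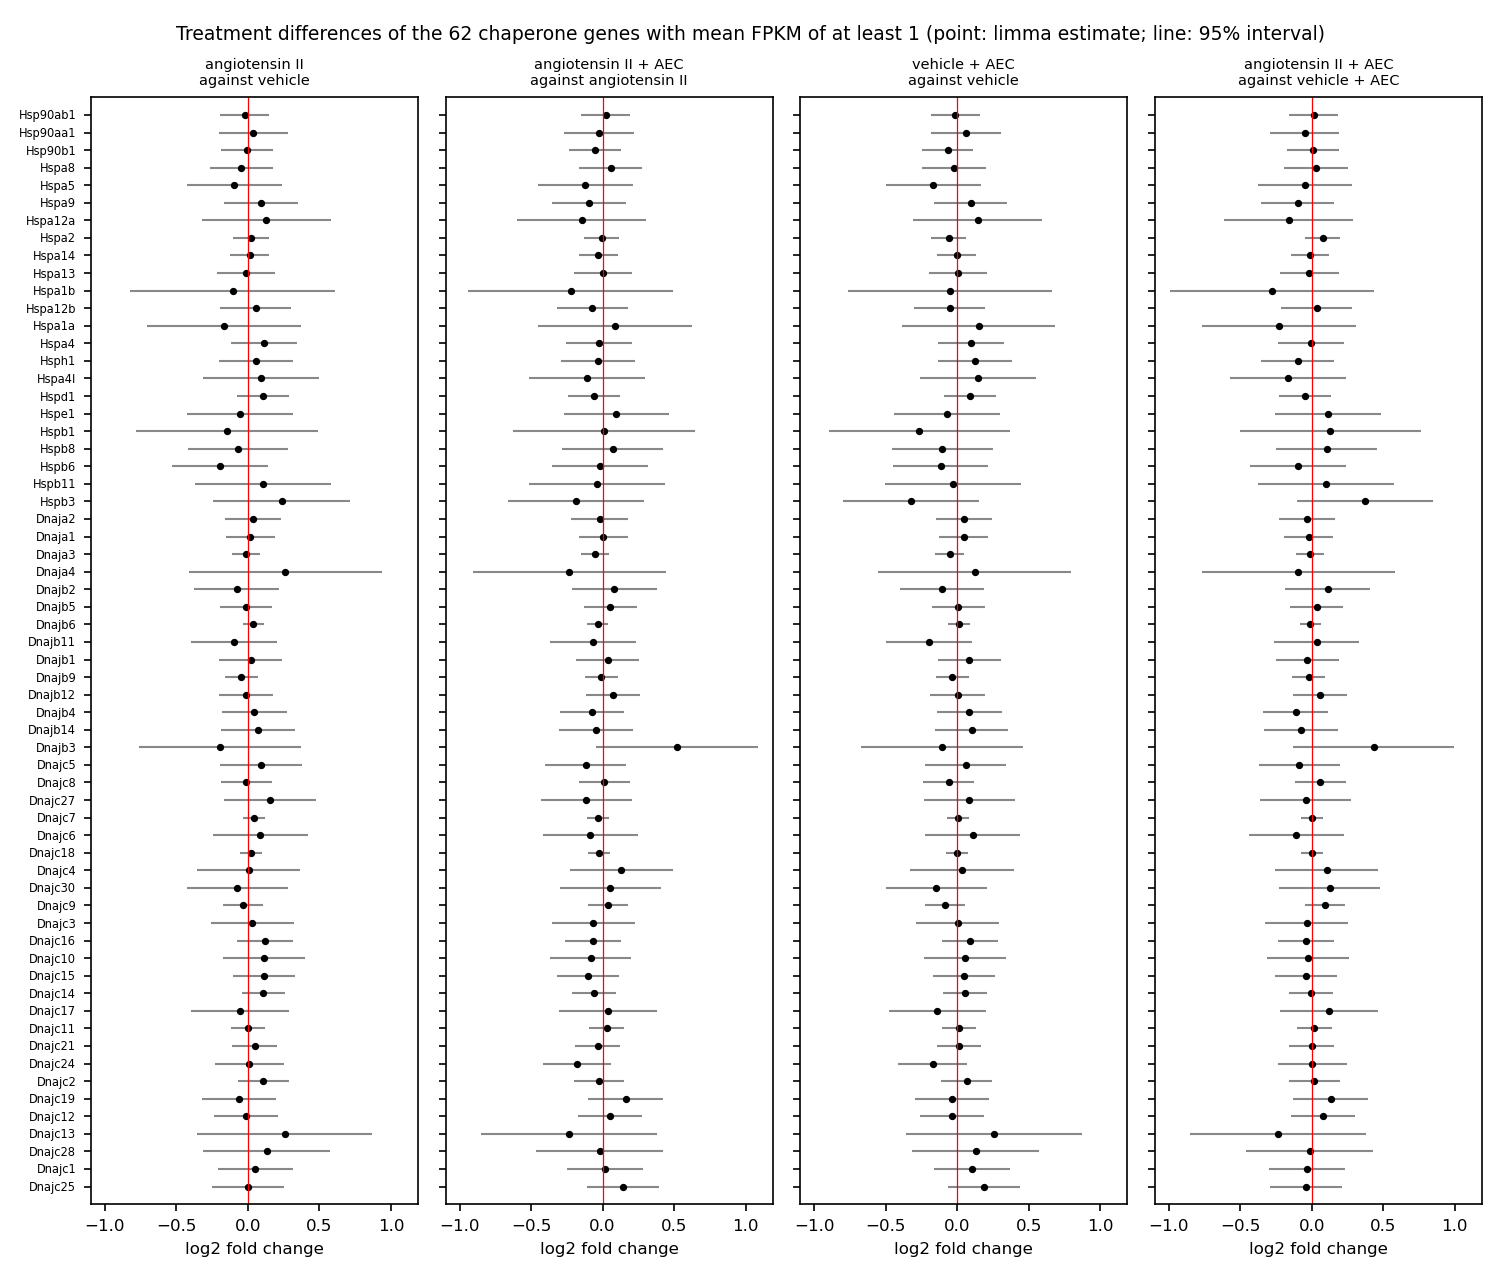
Log2 fold change (point, limma on log2(FPKM + 0.1)) and its 95% interval (line) for the 62 members with a mean of at least 1 FPKM in each of 4 comparisons; AEC stands for amnion epithelial cells. All 62 intervals cross 0 in every comparison, and the widest belong to Hspa1b, Dnaja4, Hspb1 and Dnajc13.

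Injection of amnion epithelial cells into mice with angiotensin II gave the same picture. None of 71 members had an unadjusted p under 0.05 in angiotensin II + amnion epithelial cells compared with angiotensin II, against 2.54% of all genes. The median log2 difference was -0.026 for the members and -0.017 for all genes, with 27 members higher and 44 lower by estimate. Dnajb3, a DNAJB gene first known from testis, had the lowest p-value (log2 difference 0.52, SE 0.273, adjusted p = 1 in limma, exact permutation p = 0.0887). Its values were 1.13, 1.46 and 2.38 FPKM (lowest, median, highest) with the cells and 0.648, 0.899 and 2.16 without, the highest in each being a library of the set of 6. Dnajb3 lies within the Ugt1a gene cluster, and without knowledge of strand its reads cannot be told from that cluster's. Dnajc24 (-0.18, SE 0.116) and Dnajc19 (0.16, SE 0.126) followed.

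Accounting for the library set brought out a few more unadjusted p-values in this comparison, near or above the share of all genes. With the set as a term they were those of Dnaja3 (-0.08, SE 0.025) and Dnajb3 (0.39, SE 0.180), 2 of 71 members, or 2.82%, where all genes gave 3.90%. In the other 18 libraries alone, 6 of 71 members (8.45%) had an unadjusted p under 0.05, against 4.61% of all genes. Dnajb3 (0.59, SE 0.172) and Dnajc19 (0.15, SE 0.064) had higher values with the cells. Dnajc24 (-0.31, SE 0.099), Dnajb11 (-0.25, SE 0.086), Hspa5 (-0.34, SE 0.150) and Dnaja3 (-0.07, SE 0.032) had lower values. Hspa5 and Dnajb11 are partners in the ER, where Dnajb11 is a J-domain co-chaperone of BiP. Each of these 6 had an adjusted p of 0.998 in limma, and the 18 libraries include angiotensin II replicate 4, the library with pituitary transcripts, whose Hspa5 value of 95.5 FPKM was the highest of its group.

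In mice without angiotensin II, 1 of 71 members (1.41%) had an unadjusted p under 0.05 in vehicle + amnion epithelial cells against vehicle, where 2.41% of all genes did. It was Dnajb7, at 0 to 4 reads per mouse (log2 difference 0.50, SE 0.219, adjusted p = 0.995 in limma, exact permutation p = 0.110), a level too low to read a change from. Dnajc25 (0.19, SE 0.122) and Dnajc24 (-0.17, SE 0.116) came next. The 8 genes grouped by name as small heat shock proteins all had lower estimates with the cells, with a median of -0.14, and none passed. Vehicle held 2 of the 6 libraries and vehicle + amnion epithelial cells 1, and all 8 genes were higher in those libraries by estimate. With the set as a term the median was -0.08 with 7 of 8 lower, and in the 18 libraries alone it was -0.06 with 5 of 8 lower.

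The effect of angiotensin II in the presence of the cells, and the interaction of both treatments, gave as few low p-values. The interaction was less precise, with a median SE of the members of 0.178 against 0.126 for the first. Its interval lay within a 1.5-fold change for 43 of 71 members and 28 of the 38 with at least 10 FPKM. In the first comparison 54 and 36 did. In angiotensin II + amnion epithelial cells against vehicle + amnion epithelial cells 1 of 71 members had an unadjusted p under 0.05 (1.41%: Dnajb7, -0.52, exact permutation p = 0.0996), against 2.66% of all genes, and in the interaction none did, against 2.54%. Hspb3 (0.37, SE 0.230) and Dnajb3 (0.43, SE 0.273) followed in the first, and the lowest p-values of the interaction were those of Dnajb7 (-0.56, SE 0.310), Dnajb3 (0.63, SE 0.386) and Dnajc9 (0.12, SE 0.096). With the set as a term, vehicle + amnion epithelial cells against vehicle gave 1 member (3.54% of all genes), the angiotensin II comparison with cells gave 2, Hspb6 and Dnajb7 (4.01%), and the interaction gave 0 (3.41%). In the 18 libraries alone the counts were 0 for angiotensin II against vehicle (3.86%), 2 for the cells with vehicle (4.18%), 4 for angiotensin II with the cells (4.27%) and 1 for the interaction (4.20%). No member passed adjustment in any of these fits, and nor did any gene in the comparisons as first made (0% each).

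The other genes of the pathway, taken from lists of 6 heat shock factors and their regulators, 34 co-chaperones, 8 subunits of the TRiC chaperonin, 19 unfolded protein response genes and 2 crystallins, behaved like the members. None of the 69 passed adjustment in any comparison. Hsbp1l1, related to the heat shock factor binding protein, had the lowest p of the heat shock factor list in angiotensin II + amnion epithelial cells compared with angiotensin II (0.45, SE 0.189, adjusted p = 1 in limma), and the crystallin Cryaa that of its list in angiotensin II + amnion epithelial cells against vehicle + amnion epithelial cells (0.54, SE 0.242, adjusted p = 1 in limma). Hsf1, the factor that induces most heat shock genes, differed by -0.06 (SE 0.093) and Xbp1, a factor of the unfolded protein response, by -0.06 (SE 0.127) in angiotensin II against vehicle.

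**Figure D3:**
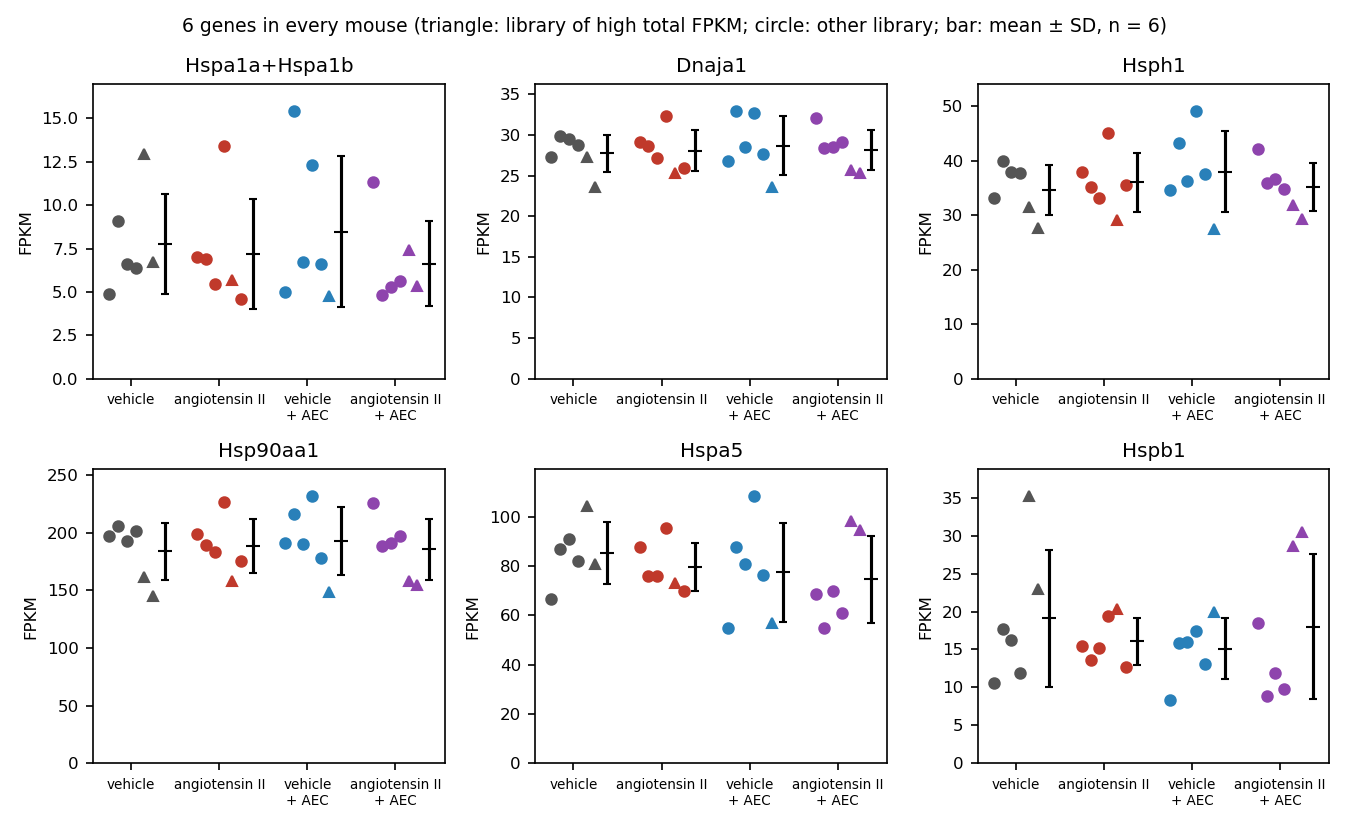
FPKM of 6 genes in every mouse by group, with the mean ± SD of each group (n = 6); triangles are the 6 libraries of high total FPKM and AEC stands for amnion epithelial cells. In each group 1 or 2 mice stand above the rest for Hspa1a + Hspa1b, and the triangles lie low for Hsph1 and Hsp90aa1 and high for Hspb1.

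The clearest pattern among the chaperones was across mice and not between groups. Because the 2 sets of libraries differ in level, correlations were computed within the 18 libraries, on log2(FPKM + 0.1), with permutation p-values from 100000 permutations. Of 8 pairs picked by name, 7 had an adjusted p under 0.05, with adjustment over these 8 only. The share of all gene pairs that would do so was not computed, so the count is not a trait of chaperones. Hspa1a and Hspa1b correlated with Pearson r = 0.83 (Spearman rho = 0.81, adjusted permutation p = 8.0e-05 and 0.00060, n = 18), and r was 0.75 without 2 mice. In each pair these were the 2 mice farthest from the median of its first-named gene, here Hspa1a. Reads shared between these paralogs would enter both. Hspa1a also correlated with Dnajb1 (r = 0.74, rho = 0.67, adjusted permutation p = 0.00067 and 0.0048, r = 0.54 without the 2 mice) and with Hsph1 (r = 0.80, rho = 0.79, adjusted permutation p = 0.00026 and 0.00060, r = 0.77 without the 2 mice). Hsp90aa1 and Hsph1, which are on different chromosomes and share no reads, had r = 0.85 (rho = 0.71, adjusted permutation p = 8.0e-05 and 0.0028, r = 0.72 without the 2 mice).

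A pair of ER chaperones made the other close pair. Hspa5 and Hsp90b1, the ER forms of HSP70 and HSP90, had r = 0.83 in the 18 libraries (rho = 0.78, adjusted permutation p = 8.0e-05 and 0.00061, r = 0.72 without the 2 mice) and r = 0.97 in the 6 libraries (exact p = 0.00139, n = 6). Hspa1a and Hspa5, from the 2 stress pathways, were less close (r = 0.52, rho = 0.60, adjusted permutation p = 0.032 and 0.013, r = 0.66 without the 2 mice). Without the pituitary-rich library r was 0.46 (permutation p = 0.0604, n = 17), and as deviations from group means it was 0.67 (permutation p = 0.0022). The sum of Hspa1a and Hspa1b, described below, had r = 0.68 with Hspa5 and 0.84 with Hsp90b1 in the 18 libraries. Hspa8 and its partner Dnaja1 had r = 0.52 (rho = 0.51, adjusted permutation p = 0.032 and 0.037), which rested on few mice, since r was 0.31 without the 2 farthest and 0.46 without the pituitary-rich library. Hspd1 and Hspe1, although parts of 1 chaperonin with a shared promoter stretch, had r = 0.37 (rho = 0.39, permutation p = 0.130 and 0.112), and the pair did not pass.

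Hspa5, Hsp90b1 and Dnajc3, an ER co-chaperone also known as p58IPK, were the only members whose RefSeq windows held the full ER stress element, CCAAT and CCACG with 9 free bases between them, searched on both strands. That is 3 of 58 members (5.17%), against 0.130% of all genes with a window. The stretches are shown with the element in capitals, 65 to 47 bases before the start of Hspa5 (chr2:34772020-34772049, plus strand), 212 to 194 and 107 to 89 bases before that of Hsp90b1 (chr10:86705510-86705694, minus strand, the second match on the opposite strand) and 105 to 87 bases before that of Dnajc3 (chr14:118937682-118937931, plus strand).
Hspa5: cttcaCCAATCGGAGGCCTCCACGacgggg
Hsp90b1: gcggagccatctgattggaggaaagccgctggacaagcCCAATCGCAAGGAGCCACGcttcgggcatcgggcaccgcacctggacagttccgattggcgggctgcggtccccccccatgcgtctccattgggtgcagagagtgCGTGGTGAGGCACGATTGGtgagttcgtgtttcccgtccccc
Dnajc3: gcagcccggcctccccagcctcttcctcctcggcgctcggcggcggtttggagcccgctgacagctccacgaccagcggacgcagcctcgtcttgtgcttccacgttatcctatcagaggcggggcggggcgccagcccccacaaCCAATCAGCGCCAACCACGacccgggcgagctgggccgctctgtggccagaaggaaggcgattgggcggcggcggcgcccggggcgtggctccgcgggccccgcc

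Taking the sum of Hspa1a and Hspa1b as a reference, a choice made after the values were seen, 11 of the other 60 members with a mean of at least 1 FPKM had r over 0.6 in the 18 libraries (18.3%), against 2.38% of 13647 genes at that level. Dnaja1, the J-domain partner of cytosolic HSP70, was the closest of all 13647 genes (r = 0.93, rho = 0.87, permutation p = 1e-05 and 1e-05, the smallest that 100000 permutations can give, n = 18). Hsph1 was the second (r = 0.90, rho = 0.81), Hsp90aa1 the fourth (r = 0.85, rho = 0.72), Hsp90b1 the fifth (r = 0.84, rho = 0.79), Hspd1 the sixth (r = 0.83, rho = 0.74) and Dnajc3 the seventh (r = 0.82, rho = 0.84). Dnajb1 (r = 0.76), Hspb1 (r = 0.75), Hspa4l (r = 0.69), Hspa5 (r = 0.68) and Dnajb4 (r = 0.68) were the rest. Permutation p-values for these 11 genes, not adjusted for the 60 members examined, were at most 0.0026 for r and 0.0136 for rho. Adjusted over the 60, they were at most 0.012 for r and 0.0582 for rho (Hspa4l). As the genes were picked by r, low p-values follow from the cut and add no support. Without the 2 mice farthest from the median of the sum, r was 0.49 to 0.90 over the 11 genes, and Dnajb4 (0.49) and Hspa4l (0.59) were no longer over 0.6. Without the pituitary-rich library r was 0.60 to 0.92, and as deviations from group means 0.65 to 0.97. In the 6 libraries it ran from 0.32 (Hspa4l) to 0.89 (Dnajb4).

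The mice highest for the sum were mostly among the highest for these genes. Since the genes were picked by r with the sum, this describes the same pattern and is not a further result. The 4 with the highest Hspa1a and Hspa1b sums of the 18, vehicle + amnion epithelial cells replicates 2 and 4, angiotensin II replicate 4 and angiotensin II + amnion epithelial cells replicate 1, had 15.4, 12.3, 13.4 and 11.3 FPKM. Their Dnaja1 values of 32.9, 32.7, 32.4 and 32.1 FPKM were above the 29.9 FPKM of the next mouse. Their Hsph1 values of 43.3, 49.1, 45.1 and 42.2 FPKM were above 39.9, the highest of the others. The same 4 mice were also the highest 4 for Hsp90aa1 and Hspd1, so for 4 of the 11 genes, and 3 of them were among the highest 4 for each of the other 7. Over the 18 libraries the sum of the inducible HSP70 genes ran from 4.58 to 15.4 FPKM, and Dnaja1 from 25.9 to 32.9 FPKM.

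Not every chaperone moved this way. Dnajc27, a J-domain gene with a Rab-like GTPase domain, was lower where the sum was higher (r = -0.85, rho = -0.83, permutation p = 3.0e-05 and 4.0e-05, r = -0.86 without the 2 mice), as were Dnajb12 (r = -0.68), Dnajc17 (r = -0.63) and Dnajc16 (r = -0.62). Together 4 of 60 members (6.67%) had r under -0.6, against 3.28% of all genes. Of the 34 co-chaperones, St13 (r = 0.80), Chordc1 (r = 0.78), Bag3 (r = 0.72), Hyou1 (r = 0.66), Ahsa2 and Cacybp had r over 0.6. Of the 19 unfolded protein response genes Herpud1 (r = 0.72), Creld2 (r = 0.71), Xbp1 (r = 0.70), Pdia4 (r = 0.69), Pdia3 and Canx did. Unadjusted permutation p-values for r of these genes were at most 0.0079, which follows from the cut on r. Hsf2 was the only 1 of 5 heat shock factors and regulators at that level (r = 0.60), and none of the 8 TRiC subunits was. In the other direction Hspbp1, a nucleotide exchange factor of HSP70 (r = -0.66), and Hsbp1, the heat shock factor binding protein (r = -0.60), were under -0.6. Median r was 0.06 for the co-chaperones, 0.50 for the unfolded protein response genes, 0.31 for TRiC and -0.18 for the heat shock factors and regulators.

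Measures of the libraries were less close to the sum. In the 18 libraries r was 0.17 for total reads, 0.092 for the mitochondrial share and -0.37 for total FPKM. Over 10 lists of cell type markers r of the summed level ran from -0.38 (oligodendrocyte) to 0.30 (astrocyte), with 0.28 for pituitary genes and -0.15 without the pituitary-rich library. The cause of the differences among mice was not tested.

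**Figure D4:**
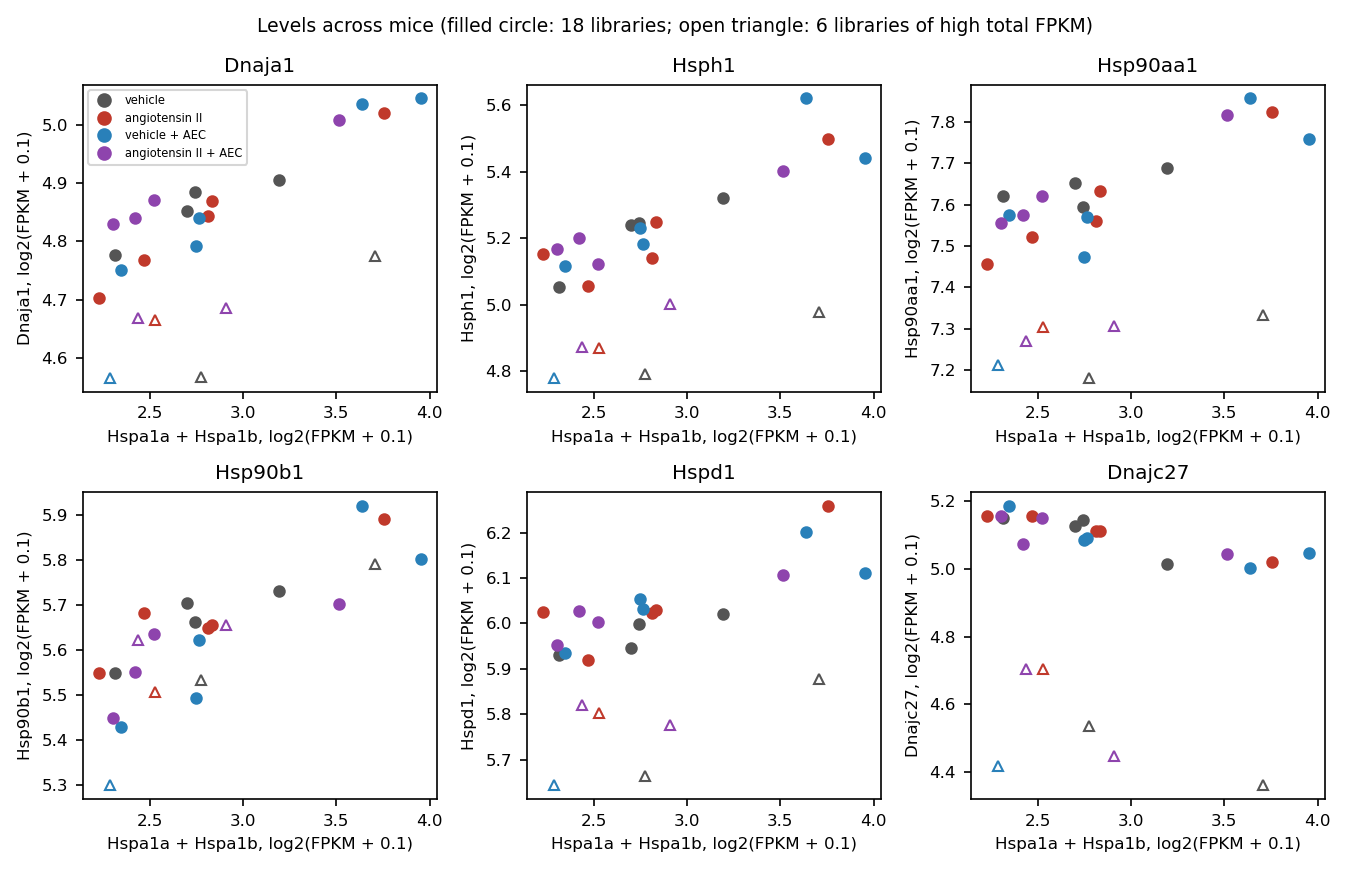
Log2(FPKM + 0.1) of 6 members against that of the sum of Hspa1a and Hspa1b, 1 point per mouse, coloured by group (AEC, amnion epithelial cells); filled circles are the 18 libraries and open triangles the 6 of high total FPKM. Dnaja1, Hsph1, Hsp90aa1, Hsp90b1 and Hspd1 rise with the sum in the 18 libraries and Dnajc27 falls, with r from -0.85 to 0.93. Groups overlap along each line, but in the 18 libraries the sum reached 9.06 FPKM with vehicle and 15.4 with vehicle + AEC.

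The largest differences in the chaperone genes were between the library sets, which were defined from total FPKM and not from any label. With group in the fit, 48 of 71 members (67.6%) had an adjusted p under 0.05 in the 6 libraries against the 18, 21 higher (29.6%) and 27 lower (38.03%), where 53.3% of all genes were called, 22.3% higher and 31.0% lower. Most members are well expressed, and among genes with a mean of at least 1 FPKM the share was 79.0% of 62 members and 82.7% of all genes, so the members' share was near that of all genes. Lowest in the 6 libraries were Hspa1l (log2 difference -1.27, SE 0.121), Dnaja4 (-1.24, SE 0.077), Dnajc13 (-1.15, SE 0.048) and Hspa12a (-0.85, SE 0.029). Highest were Hspb1 (0.91, SE 0.169), Dnajb3 (0.81, SE 0.148), Hspb11 (0.73, SE 0.112) and Hspe1 (0.65, SE 0.053). All 8 of these had adjusted p-values of at most 6.1e-05 in limma.

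In 33 of the 71 members tested (46.5%) the values of the 2 sets did not overlap, against 27.5% of all genes. With a mean of at least 1 FPKM it was 32 of 62 members (51.6%) and 51.0% of all genes, so this share too was near that of all genes. Dnajc13, an endosomal J-domain protein, was 3.68 to 4.76 FPKM in the 18 libraries and 1.68 to 1.97 in the 6. Dnaja4 was 7.88 to 10.7 and 2.60 to 4.45 FPKM, and Hspb1 was 8.36 to 19.4 and 19.9 to 35.2 FPKM. Hspd1 and Hspe1, the parts of 1 complex, went apart, Hspd1 with 60.4 to 76.5 against 49.9 to 58.7 FPKM and Hspe1 with 40.3 to 53.5 against 68.7 to 86.2. So did both cytosolic HSP90 genes, with log2 differences of 0.17 for Hsp90ab1 and -0.37 for Hsp90aa1. Hspa1a (-0.02, SE 0.217), Hspa1b (-0.10, SE 0.289), Dnajb1 (-0.09), Hspa5 (0.12) and Hsp90b1 (-0.09) were not called.

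Gene length enters the definition of the sets, since total FPKM sums reads divided by length and a library with relatively more reads on short genes has a higher total. A relation of length and direction is therefore in part built in, and is given as a description only. The 21 members higher in the 6 libraries had a median length of 2555 bases, the 27 lower ones 5733 bases and the 23 not called 2769 bases. Across members Spearman's rho of length and difference was -0.60 (71 genes) and across all genes tested -0.24, and with a mean of at least 1 FPKM it was -0.66 (62 members) and -0.52 (13649 genes). Genes share libraries, so these are descriptions. Cell type markers also differed between the sets, in both directions. The summed FPKM of 5 smooth muscle genes was 7.86 to 13.3 in the 18 libraries and 26.9 to 38.3 in the 6, with 4 of 5 called higher and none at 0, and that of 5 erythroid genes 32.9 to 189 and 123 to 204, with 5 of 5 called higher. Of 5 oligodendrocyte genes, 4 were called higher and none lower. In lists of 5 genes each, 3 were called higher and 2 lower for choroid plexus and for microglia, 3 and 1 for ependyma, 2 and 3 for neurons and for astrocytes, 1 and 2 for endothelium and 0 and 1 for pituitary. Their part in the chaperone differences was not tested.

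**Figure D5:**
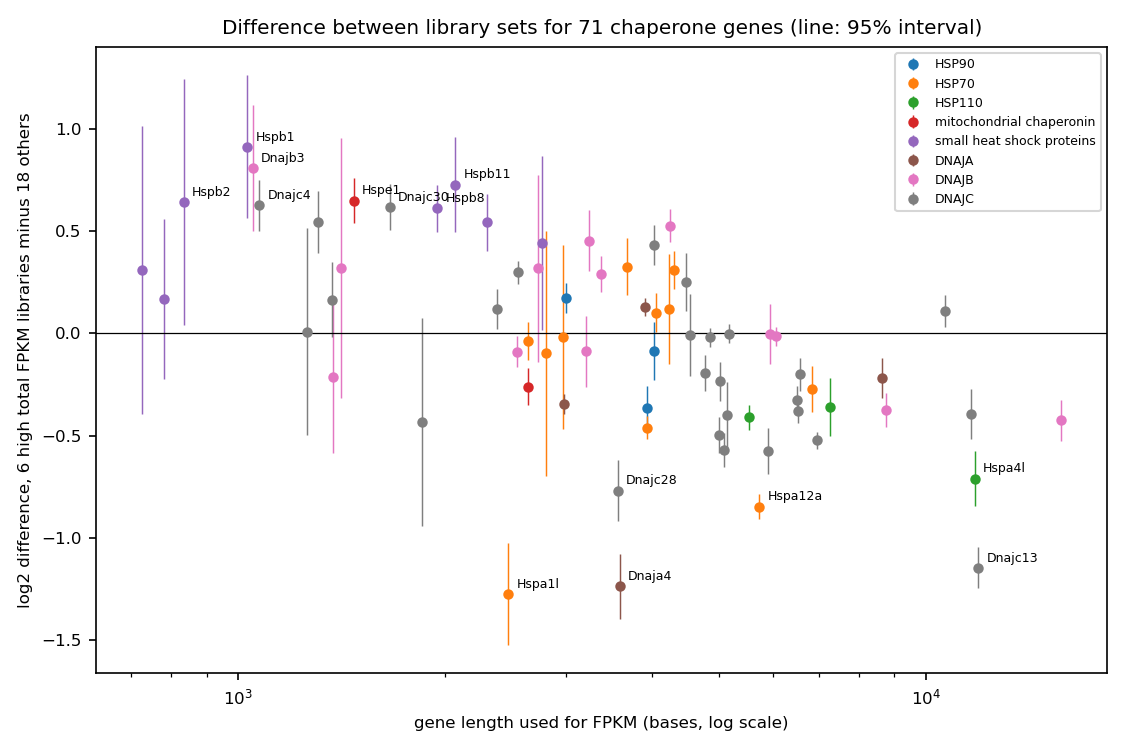
Log2 difference (6 libraries of high total FPKM minus the other 18, point, with its 95% interval) of 71 members against gene length on a log axis, coloured by family. Short genes such as Hspb1, Hspe1 and Dnajc4 lie above 0 and long ones such as Dnajc13 and Hspa4l below, with Spearman's rho -0.60. Not all genes follow this, since Hspa1l, the lowest at -1.27, is 2472 bases long.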

How the data were processed

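Brain RNA of 24 mice was measured by RNA sequencing of poly-A RNA. Values were FPKM, which the authors made from reads mapped to the mouse genome with Ensembl genes, and deposited as 1 table with gene lengths and GRCm38 coordinates. DESeq 1.10.1 is named in the submitters' processing notes. Which aligner and counter were used, and whether strand entered, is not given in the sources used here. Groups and replicate numbers came from the sample labels.

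Differences were tested in R 4.3.3 with limma 3.58.1 (eBayes with a trend) on log2(FPKM + 0.1), all 4 groups in 1 fit, over the 27286 genes above 0 in at least 6 mice, with Benjamini-Hochberg adjustment. A fold change on this scale understates that of low genes. Single values were tested with exact permutation tests. At least 99.98% of values in every mouse were whole reads (within 0.05 of a read) once multiplied by gene length. These recovered reads gave the read totals, mitochondrial shares and reads per gene, the check of sampling noise and the basis of the simulated data. Tests of differences used them only in an alternative (voom). The fits were tested on simulated data. Library sets were split at a total FPKM of 320000. Samples of a group differed by more than sampling noise, and p-values measure the spread between these mice. Counting error alone limits genes with few reads. Of the 72 members, 38 overlap another annotated gene, so their values are uncertain without knowledge of strand.

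The members were chosen by a rule on names and not by values, but with earlier results of these data known. So were the lists and the named genes. Named genes were the main inducible, ER and mitochondrial chaperones, the 5 highest, the 5 most variable and the 3 with the lowest p per comparison. Promoter sequences were RefSeq windows of GRCm38.p6. Other steps used Python 3.11.15 with pandas 2.3.3, scipy 1.17.1 and matplotlib 3.10.9. Alternatives were another pseudocount, no filter, a mean of at least 1 FPKM, median-ratio scaling, voom, the replicate number as a block, the library set, fewer groups and leaving out each mouse. The correlations without angiotensin II replicate 4 were added after seeing the data.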

Additional observations from a re-analysis of the deposited data

Results flagged for a closer look

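Within groups of 6 mice, single libraries far from the other 5 were looked for among 25 named genes, that is in 100 sets of 6 values, by the ratio of the largest end gap to the range (Dixon's 95% limit for 6 values). It was exceeded 14 times. Chance alone exceeds it in about 1 in 20 sets, but the count cannot be read against that, since 5 of the genes were named for their spread among mice and gave 8 of the 14. The pituitary-rich library, angiotensin II replicate 4, was the highest of its group for Hspa1a (4.87 FPKM, others 1.71 to 2.82), Hspa1b (8.53, others 2.87 to 4.45) and their sum (13.4, others 4.58 to 7.02). Angiotensin II + amnion epithelial cells replicate 1 was the highest for Hspa1a (5.17 FPKM, others 2.09 to 3.07).

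Of the rest, 9 values came from the only library of the set of 6 in its group or from 1 of them. In angiotensin II replicate 5 these were Hspe1 (72.5 FPKM, others 47.1 to 52.3), Dnaja4 (4.45, others 8.79 to 10.7), Dnajc13 (1.87, others 3.96 to 4.76), Dnajb3 (2.16, others 0.648 to 1.099) and Dnajc19 (6.74, others 4.39 to 4.91). In vehicle + amnion epithelial cells replicate 6 they were Dnaja4 (2.60 FPKM, others 8.26 to 10.1), Dnajc13 (1.94, others 3.68 to 4.70) and Dnajb3 (2.53, others 0.627 to 1.17). Angiotensin II + amnion epithelial cells replicate 5 was the highest for Dnajb3 (2.38 FPKM, others 1.13 to 1.54). Outside both patterns, angiotensin II + amnion epithelial cells replicate 3 was the lowest for Dnajc25 (0.792 FPKM, others 1.06 to 1.16). No member had angiotensin II effects without and with the cells that moved every mouse in opposite ways, and no interaction passed adjustment.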

How the results depend on the processing

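No member passed adjustment in any treatment comparison under any alternative. Counts of members with an unadjusted p under 0.05 stayed within 0 to 6. For angiotensin II against vehicle the count was 0 under every alternative and with each mouse left out. For the cells given with angiotensin II it was 0 as reported, 1 with the replicate block and 1 with voom, 2 with the library set as a term and 6 in the 18 libraries alone, and 0 to 2 with a mouse left out (2 without angiotensin II replicate 5). For the cells given with vehicle it was 1 as reported, 0 with a mean of at least 1 FPKM, 0 with voom, 0 with the compared groups alone, 2 in the 18 libraries alone, and 0 to 2 with a mouse left out (2 without vehicle + amnion epithelial cells replicate 6, 0 without its replicates 1, 2 or 5 or vehicle replicates 1, 3 or 6). For angiotensin II with the cells it was 1 as reported, 0 with a mean of at least 1 FPKM, 2 with the replicate block, 2 with the library set as a term, 4 in the 18 libraries alone, 0 with the compared groups alone, and 0 to 3 with a mouse left out (3 without vehicle + amnion epithelial cells replicate 6 or angiotensin II + amnion epithelial cells replicate 3, 0 without replicates 2 or 5 of either group or replicate 6 of the second). For the interaction it was 0 as reported, 2 with the replicate block, 1 in the 18 libraries alone, and 0 to 2 with a mouse left out (2 without vehicle + amnion epithelial cells replicate 6). The causes were not tested. Alternatives were also run for 15 single-gene differences, those with the 3 lowest p per comparison, a choice that favours a kept direction. Of 345 alternative values none changed direction, and 22 gained an unadjusted p under 0.05. Another 15 lost it, all of them of Dnajb7, the only member under 0.05 as reported.

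Whether replicate numbers pair the mice could not be told from correlations of deviations from the group means. Over 36 pairs of mice with the same number these ran from -0.22 to 0.80, and 28 were over 0.1. Of 24 mice, 7 correlated best with their own number. All 6 libraries that stood apart had number 5 or 6, so the library set enters these values. With the number as a block, the members' median SE in angiotensin II against vehicle fell from 0.126 to 0.0922. The block changed no adjusted call between treatments, and took the members called between library sets from 48 to 35. Other alternatives gave 47 to 52, with the same direction for all 48, although voom moved the median of all genes from -0.07 to -0.18.

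In the 6 libraries alone, with exact p-values above 0.05, r was 0.79 for Hspa1a and Hspa1b, 0.63 for Hspa1a and Hsph1, 0.44 for Hspa1a and Hspa5 and 0.72 for Hspa8 and Dnaja1. The last pair had r = 0.31 without the 2 mice farthest from the median and 0.46 without angiotensin II replicate 4, and Hspa1a and Hspa5 had 0.46 without that library, all no longer past 0.05. Depth limits the members under 0.1 FPKM, where single reads set the difference.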
